A study of Mus musculus with 15 samples.

Results

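The fibrillar collagen RNAs of Col1a1, Col1a2 and Col3a1 were followed in HITS-CLIP of the RNA-binding protein Mbnl3. In HITS-CLIP, ultraviolet light crosslinks RNA to protein, an antibody precipitates the complexes, and the attached RNA fragments are sequenced as short tags. The members were chosen by position, as the tags whose midpoint lay on the plus strand of the mm9 build within chromosome 11, 94797500 to 94814400 (Col1a1), chromosome 6, 4454800 to 4491600 (Col1a2), or chromosome 1, 45368300 to 45406600 (Col3a1). These 3 genes held 1865 of the 916978 tags counted. The last 2000 nt of each interval, at the 3′ side of the gene, were set against the rest.

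Type I collagen, the main protein of bone, tendon and dermis, is a rope of Col1a1 and Col1a2 chains, in which the Col1a1 chain is the more frequent. Type III collagen is built of Col3a1 chains alone and lies beside type I fibrils in skin, vessel walls and the sheaths of muscle. Fibroblasts, tendon cells and osteoblasts are the main sources of these RNAs in a developing limb. Muscleblind proteins such as Mbnl3 bind RNA, regulate alternative splicing and also contact the 3′ ends of transcripts.

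Tags were compared between 3 sources. Mbnl3 ΔE2/ΔE2 forelimbs (BL6 mice homozygous for the ΔE2 allele, titled Mbnl3 KO) and WT BL6 forelimbs were taken at E15, and each of the 3 libraries per genotype came from 4 forelimbs pooled from 2 embryos. C2C12, a mouse myoblast line labelled WT, was grown in DMEM with 20% FBS, and its 3 libraries were deposited as 1 combined set. Lysates of all sources were denatured with SDS and precipitated with the Mb3/7 antibody to Mbnl3. The RNA-seq of 3 mutant and 3 WT forelimbs of female embryos was used only through a deposited table of cassette exons. Which RNase A level was used for which library is not stated, and the ΔE2 libraries carry another unexplained designation number (27) than the C2C12 and WT libraries (37), so genotype cannot be told apart from whatever that number marks. Tags at Mbnl3 itself were not analysed here, so the labels were not checked on the targeted gene.

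Several libraries shared molecules, that is tags of the same position, strand and 5-base barcode. ΔE2 replicates 2 and 3 shared 83.7% and 57.4% of their tags, and 131 collagen tags, and were counted as 1 library, each molecule once. ΔE2 replicate 1 shared 30.1% of its tags with WT replicate 3 but 4.72% with ΔE2 replicate 3, so it stood closer to a WT library than to its own genotype by this measure. Among its 242 collagen tags, 74 were also in WT replicate 3. Tags held in common by WT replicates 2 and 3 made up 32.4% and 19.3% of each. Results are therefore also given without ΔE2 replicate 1 and without any shared molecule. The C2C12 set shared no collagen tag with a forelimb library. The ΔE2 libraries then held 67279 tags (replicate 1) and 65730 tags (replicates 2 and 3), the C2C12 set 550124, and the WT libraries 35413, 74123 and 124309. Intervals below are on molecules, not amplified reads, and cover counting error only. They leave out variation between embryos and between libraries. Each CLIP value also depends on how much of the RNA was present, and in bulk tissue fewer cells of a type cannot be told apart from less RNA per cell.

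Col1a1, the α1 chain of type I collagen, gave the most tags of the 3 RNAs in forelimb, in total and per kb. It had 168 and 149 tags in the ΔE2 libraries, 32 in C2C12, and 193, 269 and 383 in the WT libraries. Scaled to 1000000 tags of the library, the levels were 2497 and 2267 in ΔE2, 58.2 in C2C12 (95% exact Poisson interval 39.8 to 82.1), and 5450, 3629 and 3081 in WT. Both ΔE2 libraries lay below all 3 WT libraries on this scale, with a mean of 2382 ± 163 (SD, n = 2) in ΔE2 and 4053 ± 1240 (SD, n = 3) in WT. The rows of the genome tested below leaned the same way on this scale, with a median log2 fold of -0.41. After the scaling used there, Col1a1 overlapped between the genotypes. How many features separate the genotypes in this way was not counted. Ranked by tags among the 53729 stranded features with forelimb tags, Col1a1 stood at 9 in ΔE2, 2730 in C2C12 and 4 in WT. Features with C2C12 tags alone were not ranked.

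Col1a2, the α2 chain of type I collagen, gave fewer in forelimb, in total and per kb. Its tags numbered 39 and 35 in ΔE2, 142 in C2C12, and 10, 22 and 55 in WT. Per 1000000 tags these were 580 and 532 in ΔE2, 258 in C2C12 (interval 217 to 304), and 282, 297 and 442 in WT. Here both ΔE2 libraries lay above all 3 WT libraries, with a mean of 556 ± 33.4 (SD, n = 2) in ΔE2 and 341 ± 88.5 (SD, n = 3) in WT. How many features lie so was not counted here either. The C2C12 value lay below each of the 5 forelimb values, and its interval held the lower pair of the WT values.

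Col3a1, which encodes the type III chain, had 35 and 60 tags in ΔE2, 164 in C2C12, and 12, 40 and 57 in WT. The levels per 1000000 tags were 520 and 913 in ΔE2, 298 in C2C12 (interval 254 to 347), and 339, 540 and 459 in WT. The genotypes overlapped on this scale, since ΔE2 replicate 1 lay below WT replicate 2. The means were 717 ± 278 (SD, n = 2) in ΔE2 and 446 ± 101 (SD, n = 3) in WT. The higher ΔE2 value was that of the merged library. Its parts, replicates 2 and 3, were at 913 and 897 when counted apart, but they share most of their tags. Their likeness is therefore no replication.

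**Figure D1:**
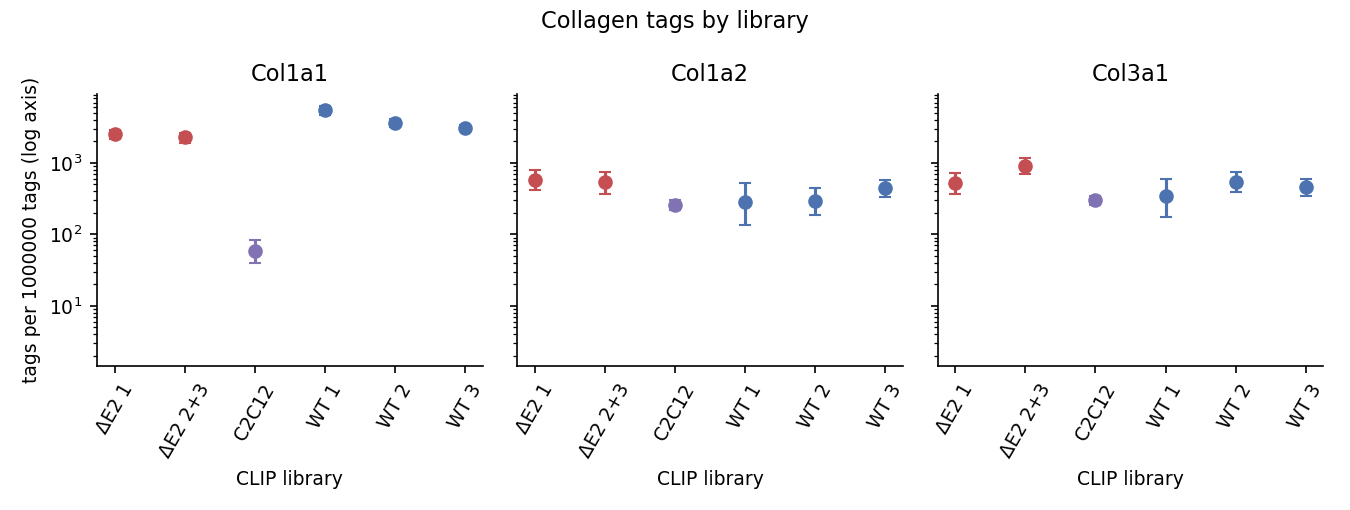
Tags per 1000000 tags of the library (log axis) for Col1a1, Col1a2 and Col3a1 in each CLIP library, with points for ΔE2 (red), C2C12 (purple) and WT (blue) and bars for the 95% exact Poisson interval. Col1a1 was at 2497 and 2267 in ΔE2, 58.2 in C2C12 and 3081 to 5450 in WT, while the other genes spanned 258 to 913 over all sets.

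Between genes, levels were compared per kb of the gene interval, introns included. Col1a1 gave 141 tags per 1000000 per kb in ΔE2, 3.44 in C2C12 and 240 in WT (means over libraries in forelimb). Col1a2 gave 15.1 in ΔE2, 7.01 in C2C12 and 9.25 in WT, and Col3a1 gave 18.7, 7.78 and 11.6 in the same order. The order in forelimb was thus Col1a1 first in both genotypes, with Col3a1 and Col1a2 next to each other, whereas in C2C12 Col1a1 was the lowest. The ratio of Col1a1 to Col1a2 tags was 4.31 and 4.26 in ΔE2, 0.225 in C2C12, and 19.3, 12.2 and 6.96 in WT. Both ΔE2 ratios lay below all WT ratios, and the two-sided exact permutation test gave p = 0.2, adjusted to 0.45 over the 3 pairs of genes, where 0.1 is the smallest p that 3 against 2 libraries allow. Ratios of Col3a1 to Col1a2, at 0.897 and 1.71 in ΔE2, 1.15 in C2C12 and 1.2, 1.82 and 1.04 in WT, overlapped (exact permutation p = 0.9).

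The opposite strand and the surroundings of the genes were almost free of tags. The minus strand of the 3 intervals held 0 tags in every library except for 1 C2C12 tag at Col1a2. Flanks of the same length on the plus strand held 0 tags beside Col1a2 and Col3a1, and at most 4 per library beside Col1a1. The level of the flanks therefore did not approach that of the genes in forelimb, and at Col1a1 in C2C12 the 5′ flank held 4 tags beside 32 in the gene.

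The gap between C2C12 and WT forelimb was widest at Col1a1. Its level in C2C12 was 0.0144 times the mean of the WT libraries, so that WT was 69.7-fold higher, while the C2C12 values were 0.758 times the WT mean at Col1a2 and 0.669 times at Col3a1. The upper end of the C2C12 interval for Col1a1 lay far below the lowest WT library. There is no test, because C2C12 is 1 set without replicates. C2C12 tags are all 26 to 30 nt long while forelimb tags run from 19 to 38 nt, and with forelimb tags of 26 to 30 nt alone the ratios of C2C12 to WT were 0.0131 at Col1a1, 1.06 at Col1a2 and 1.33 at Col3a1. The direction for Col1a2 and Col3a1 therefore turned with the length of the tags, and that for Col1a1 did not.

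ΔE2 was set against WT forelimb to see whether more or less collagen RNA was recovered with the antibody from the mutant. Col1a2 and Col3a1 were called higher in ΔE2 in the main fit, and Col1a1 did not pass the test. The call ended in 6 of 15 alternatives for Col1a2 and in 9 of 16 for Col3a1. The 3 genes were tested as 3 rows of a table that covers the rest of the genome in stranded tiles of 20000 nt, with edgeR's quasi-likelihood test and Benjamini-Hochberg adjustment over 875 tested rows. Among them, 8.69% of rows were called in either direction at an adjusted p of at most 0.05, that is 76 rows, 60 of them higher in ΔE2 (6.86%) and 16 lower (1.83%). Of the 3 collagen genes 2 were called, both higher. The median log2 fold over all tested rows was 0.01, and over the 3 genes it was 1.04.

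After TMM scaling, which sets libraries level over the tested rows, Col1a2 stood at 626 and 705 tags per 1000000 (CPM) in ΔE2, against 254, 262 and 390 in WT. The groups did not overlap, and ΔE2 over WT was 1.04 ± 0.27 on the log2 scale (± the fitted standard error, edgeR adjusted p = 0.0272). Col3a1 had 562 and 1209 CPM in ΔE2, against 304, 476 and 405 in WT. These did not overlap either once scaled, at a log2 fold of 1.08 ± 0.31 (SE, edgeR adjusted p = 0.0362). How many of the tested rows separate the genotypes after scaling was not counted, so the separation alone is no result. Col1a1 had 2696 and 3003 CPM in ΔE2, against 4893, 3204 and 2718 in WT. Here the groups overlapped, since the ΔE2 libraries sat around the lowest WT library, and the log2 fold was -0.32 ± 0.28 (SE, edgeR adjusted p = 0.490).

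The calls for Col1a2 and Col3a1 held without ΔE2 replicate 1 (log2 folds 1.04 and 1.48, edgeR adjusted p = 0.0498 and 0.00305) and without shared molecules (1.42 and 1.53, both adjusted p = 0.0122). With the library size in place of TMM, with no low-count filter and with WT replicates 2 and 3 as 1 library both calls ended. Library size gave log2 folds of 0.62 and 0.63 (edgeR adjusted p = 0.123 and 0.126), while the median of all tested rows moved to -0.41. Both calls also ended without WT replicate 2, without WT replicate 3 and without ΔE2 replicate 3, and that of Col3a1 without WT replicate 1 as well (edgeR adjusted p from 0.0514 to 0.177). The Col1a1 fold was called under none of the 16 alternatives tried and ran from -0.78 with no low-count filter to -0.08 without WT replicate 1.

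Along the genes the 3 RNAs differed in where their tags fell. Col1a1 tags gathered at the end of the gene. The last 2000 nt held 63.7% and 46.3% of its tags in ΔE2, 65.6% in C2C12 (95% exact binomial interval 46.8% to 81.4%), and 81.9%, 76.2% and 74.9% in WT. Both ΔE2 libraries lay below all WT libraries, at 55.0% ± 12.3 (SD, n = 2) in ΔE2 and 77.7% ± 3.69 (SD, n = 3) in WT. The difference of -22.7 percentage points had a two-sided exact permutation p of 0.1, the smallest possible, and 0.3 adjusted over the 3 genes. Leaving out shared molecules gave 54.1% and 44.0% in ΔE2 and 83.3%, 75.6% and 75.2% in WT. Over 12 alternatives, among them windows of 1000 and 3000 nt, the difference ran from -31.4 to -19.2 points.

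Col1a2 tags in forelimb were less concentrated in the last 2000 nt than those of Col1a1. Per kb, the last 2000 nt of Col1a2 held 1.74 to 3.81 times the tags of the rest in forelimb libraries. At Col1a1 this ratio ran from 6.43 to 33.6. The Col1a2 ratios rest on 1 to 9 tags per forelimb library in the last 2000 nt. As a share, the last 2000 nt of Col1a2 held 17.9% and 11.4% of the tags in ΔE2, 35.9% in C2C12 (interval 28.0% to 44.4%), and 10.0%, 9.09% and 16.4% in WT. The genotypes overlapped (difference 2.87 percentage points, exact permutation p = 0.5), and without ΔE2 replicate 1 the difference was -0.390 points. The C2C12 share lay above all 5 forelimb shares, and its interval did not reach the highest of them. The forelimb intervals themselves reached up to 33.5% and 26.7% in ΔE2, and 44.5%, 29.2% and 28.8% in WT. All but that of the merged ΔE2 library overlapped the C2C12 interval. A wider view separated the genotypes: the last 25% of the gene held 61.5% and 71.4% of the tags in ΔE2, 58.5% in C2C12, and 30%, 45.5% and 43.6% in WT. That window was looked at after the values were known and was not tested.

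Col3a1 fell between the other genes in forelimb. The last 2000 nt held 28.6% and 18.3% of its tags in ΔE2, 29.3% in C2C12 (interval 22.4% to 36.9%), and 41.7%, 45.0% and 29.8% in WT. Both ΔE2 values lay below the WT values, with 28.6% in ΔE2 replicate 1 close to 29.8% in WT replicate 3, and the difference of -15.4 percentage points had an exact permutation p of 0.2 (0.3 adjusted over the 3 genes). A window of the last 3000 nt in place of 2000 nt left -3.45 points. The WT shares rest on 5, 18 and 17 tags.

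**Figure D2:**
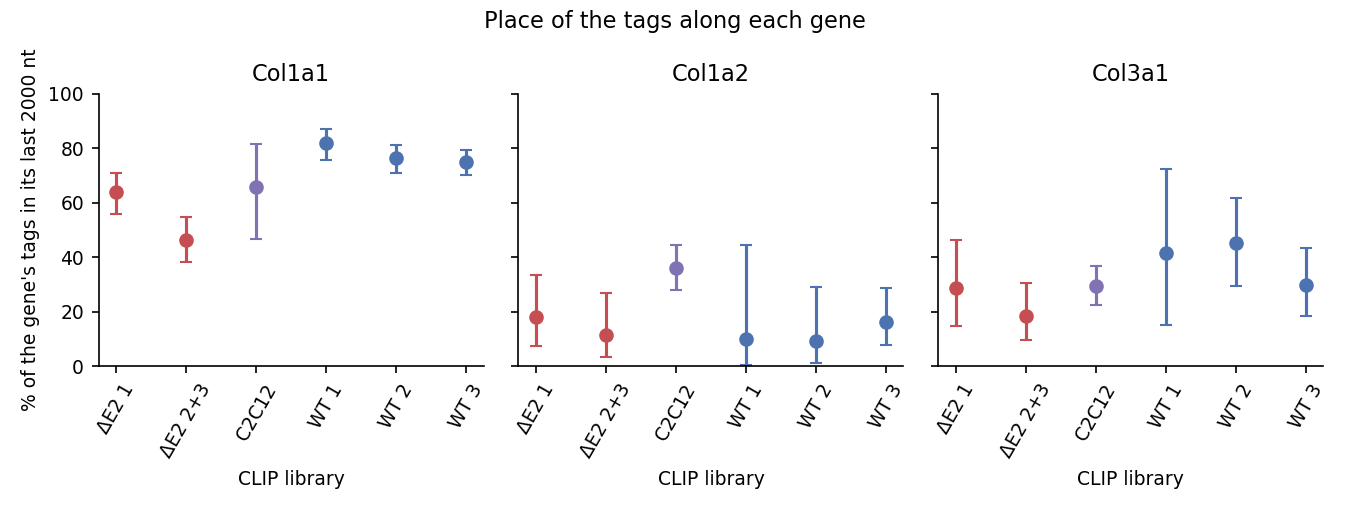
Share of each gene's tags (percent) that lay in the last 2000 nt of the gene interval, per CLIP library, with ΔE2 in red, C2C12 in purple, WT in blue and bars for the 95% exact binomial interval. At Col1a1 the ΔE2 libraries were at 63.7% and 46.3% and the WT libraries at 74.9% to 81.9%, and at Col1a2 the C2C12 set, at 35.9%, stood above the forelimb libraries.

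In bins of 500 nt, Col1a1 tags filled 28 of 34 bins in ΔE2, 10 in C2C12 and 31 in WT, and the last bin alone held 41.0% of the tags in ΔE2, 25% in C2C12 and 58.7% in WT. The bin from 1000 to 1500 nt before the end was next in both genotypes, with 9.78% in ΔE2 and 13.6% in WT. Col1a1 thus had a main and a minor place of tags near its end and a low layer along the rest.

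At Col1a2, tags were found in 32 of 74 bins in ΔE2, 42 in C2C12 and 30 in WT. No bin held more than 10.8% of the tags in ΔE2 or 13.8% in WT. The fullest WT bin, 13000 to 13500 nt before the end, had 12 tags, and the fullest ΔE2 bins, at 3500 to 4000 and 7500 to 8000 nt before the end, had 8 each. In C2C12 the fullest bin was at 500 to 1000 nt before the end, with 31 tags or 21.8%.

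Col3a1 tags were in 31 of 77 bins in ΔE2, 46 in C2C12 and 31 in WT. Its fullest bin in WT was the last one, with 32 tags (29.4%), whereas in ΔE2 and in C2C12 it was the bin from 2500 to 3000 nt before the end, with 16 tags (16.8%) and 22 tags (13.4%). The last bin held 11 tags (11.6%) in ΔE2.

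**Figure D3:**
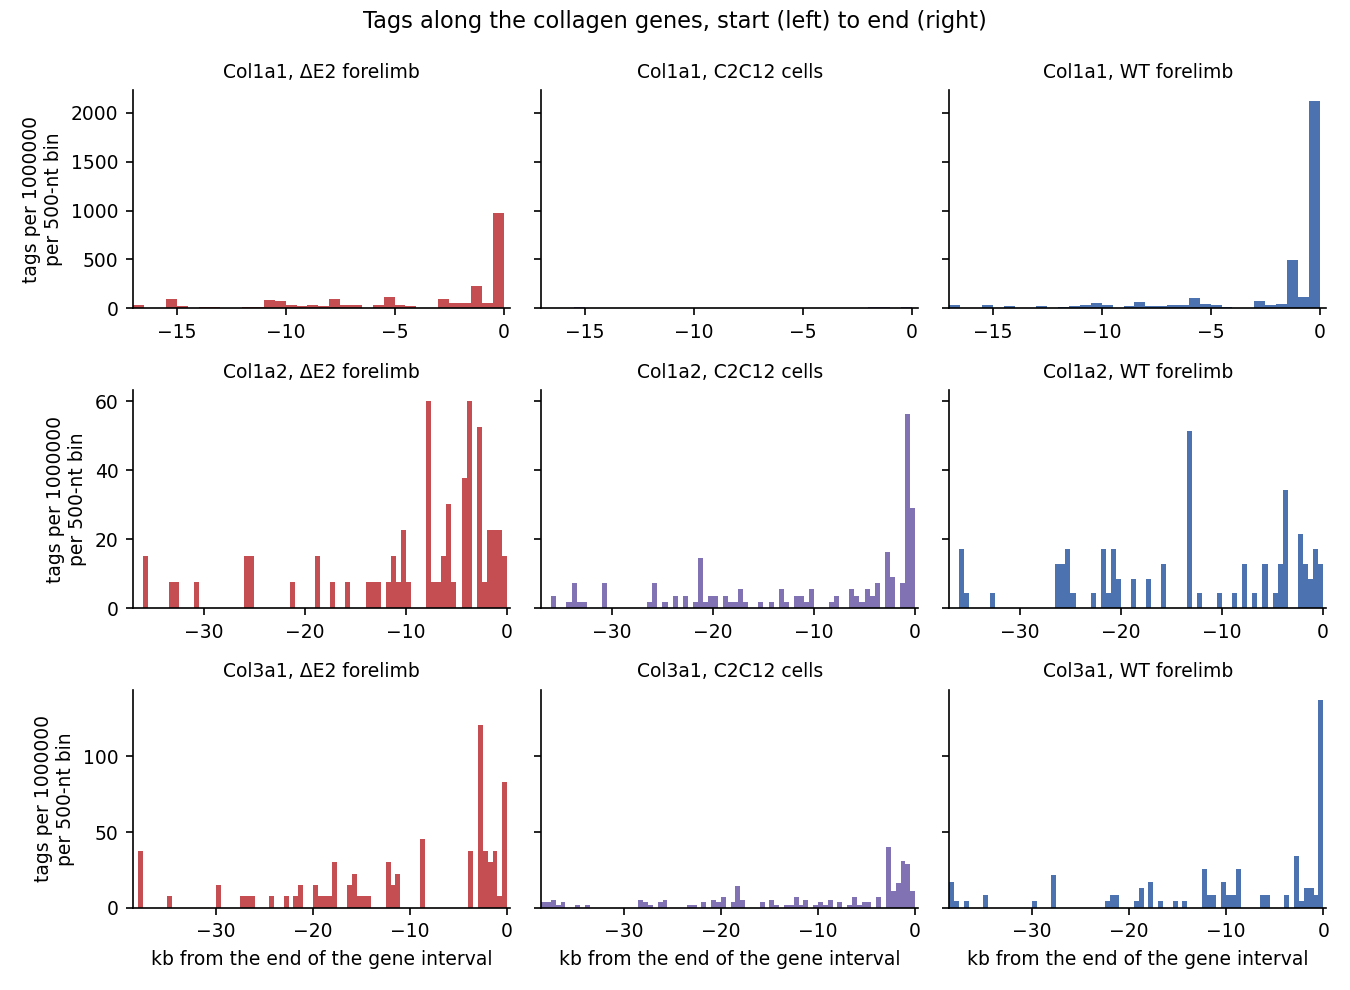
Tags per 1000000 tags in bins of 500 nt along Col1a1, Col1a2 and Col3a1, plotted in kb from the end of the gene interval, with the 2 ΔE2 libraries summed (left), the C2C12 set (middle) and the 3 WT libraries summed (right) on 1 scale per gene. The last Col1a1 bin held 41.0% of the gene's tags in ΔE2 and 58.7% in WT, and Col1a1 in C2C12, with 32 tags, is too low to see on that scale.

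The fullest place along Col1a1 in forelimb was a single cluster of overlapping tags, 274 nt long, at chromosome 11, 94813997 to 94814270 (plus strand), ending 130 nt before the end of the interval. No mm9 annotation was used, so whether it lies in the 3′ UTR or another exon was not determined. It held 78 and 50 tags in ΔE2, 7 in C2C12, and 127, 153 and 203 in WT. Among the 191766 forelimb clusters it ranked 25 by tags in ΔE2 and 8 in WT, and its 483 WT tags had 236 distinct positions. In bins of 50 nt, the bin from 200 to 250 nt before the end held 22.4% of all Col1a1 tags in ΔE2 and 33.7% in WT, and the next one upstream, 250 to 300 nt, held 13.9% and 19.9%. The fullest bin was the same in both genotypes.

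Within Col1a1, that cluster gave 46.4% and 33.6% of the tags in ΔE2, 21.9% in C2C12, and 65.8%, 56.9% and 53.0% in WT. The means were 40.0% ± 9.10 (SD, n = 2) in ΔE2 and 58.6% ± 6.56 (SD, n = 3) in WT, with no overlap (exact permutation p = 0.1, 0.3 adjusted over 3 measures of the cluster). Per 1000000 tags the cluster had 1159 and 761 in ΔE2, 12.7 in C2C12, and 3586, 2064 and 1633 in WT. All other Col1a1 tags together had 1338 and 1506 in ΔE2, 45.4 in C2C12, and 1864, 1565 and 1448 in WT. Those other tags overlapped between the genotypes, while those of the cluster did not. The cluster was picked from these same tags as that with the most WT tags, a choice that favours WT over ΔE2. Neither its p nor this contrast is therefore support for a direction.

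**Figure D4:**
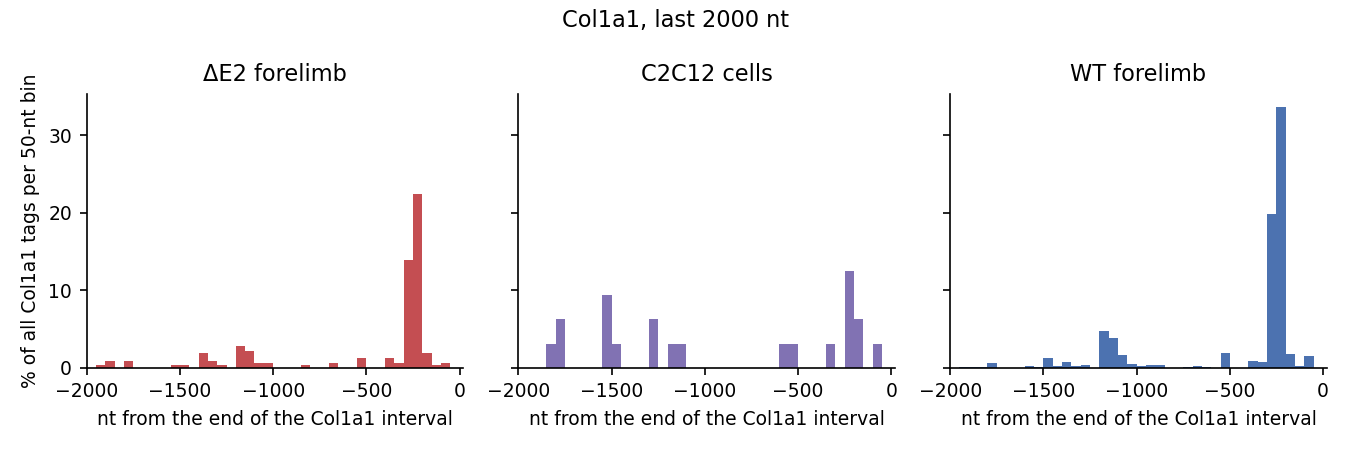
Share of all Col1a1 tags (percent) in bins of 50 nt over the last 2000 nt of the gene interval, for the 2 ΔE2 libraries summed, the C2C12 set and the 3 WT libraries summed. The bin from 200 to 250 nt before the end held 22.4% in ΔE2 and 33.7% in WT, and the C2C12 panel rests on 32 tags in the whole gene.

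Clusters were also tested one by one over the genome. Of 276 tested clusters 22.5% were called in either direction (62 clusters), 15.9% higher in ΔE2 (44 clusters) and 6.52% lower (18 clusters). With the library size as scaling the balance turned, with 80 clusters called, 22 higher and 58 lower in ΔE2. Only 3 collagen clusters, all at the end of Col1a1, passed the filter on low counts, and 0 of the 3 were called in edgeR. The main cluster had a log2 fold of -0.76 ± 0.34 (SE, edgeR adjusted p = 0.138). The cluster from 94813245 to 94813491 had 8 and 3 tags in ΔE2, 1 in C2C12, and 12, 15 and 29 in WT, with a log2 fold of -1.05 (edgeR adjusted p = 0.112), and its unadjusted p was 0.0372. The adjoining cluster from 94813186 to 94813244 had 8 and 1 tags in ΔE2, 1 in C2C12, and 7, 14 and 19 in WT, with a log2 fold of -0.86 (edgeR adjusted p = 0.280). Both of these smaller clusters had under 10 tags in each ΔE2 library and passed the filter through their WT tags, so their sign is no support for a direction. Without ΔE2 replicate 1 the log2 folds were -0.86 for the main cluster, -1.67 for the cluster from 94813245 and -2.71 for that from 94813186, with none called (edgeR adjusted p from 0.0625 to 0.197). The main cluster was called in 4 of 14 alternatives, one of them without shared molecules (log2 fold -1.14, edgeR adjusted p = 0.0348), and without WT replicate 1 it stood at -0.49.

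In all, forelimb tags formed 86 clusters at Col1a1, 61 at Col1a2 and 62 at Col3a1. Both genotypes had tags in 52 of those at Col1a1, 23 at Col1a2 and 22 at Col3a1, and C2C12 tags lay in 18, 28 and 35 of them. Most clusters were small, with 5 or more WT tags in 25, 2 and 5 of them. At Col1a2 the cluster with the most WT tags, chromosome 6 from 4478303 to 4478397, had 1 and 0 tags in ΔE2, 1 in C2C12, and 2, 4 and 6 in WT. At Col3a1 the cluster with the most WT tags, chromosome 1 from 45406177 to 45406236, had 5 and 4 tags in ΔE2, 4 in C2C12, and 4, 15 and 13 in WT. Picking a cluster by its WT tags favours WT over ΔE2, so the sign at these sites is no support for a direction. Another Col3a1 cluster, from 45404029 to 45404118, was singled out after its values were seen. It had 2 and 16 tags in ΔE2, 24 in C2C12, and 1, 2 and 2 in WT, so that its ΔE2 tags came mostly from replicates 2 and 3. These clusters were too low to be tested.

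Each gene was then split into its last 2000 nt and the rest, and the parts were tested as rows of the same table, a test added after the data were seen. Of 877 rows tested there, 8.1% were called (71 rows), and 6.27% were called higher in ΔE2 (55 rows). The rest of Col1a2 was called higher in ΔE2, with a log2 fold of 1.01 ± 0.27 (SE, edgeR adjusted p = 0.0319), and so was the rest of Col3a1, with 1.38 ± 0.34 (SE, edgeR adjusted p = 0.0201). In the rest of Col3a1, the cluster from 45404029 to 45404118 held 16 of 49 tags in the merged ΔE2 library. It held 2 of 25 in ΔE2 replicate 1 and 1 of 7, 2 of 22 and 2 of 40 in WT. The fold without that cluster was not tested. The last 2000 nt of Col1a1 had a log2 fold of -0.83 ± 0.30 (SE, edgeR adjusted p = 0.0826), and the rest of Col1a1 had 0.75 ± 0.26 (SE, edgeR adjusted p = 0.0796). Neither Col1a1 part passed the test, and their values had opposite signs. The last 2000 nt of Col3a1 had 0.30 ± 0.40 (SE, edgeR adjusted p = 0.649), and those of Col1a2 were too low to be tested.

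Each Col1a1 part was uncalled in 10 of 14 alternatives. Without shared molecules both were called, at log2 folds of -1.11 for the last 2000 nt and 0.91 for the rest (both edgeR adjusted p = 0.0460). Without ΔE2 replicate 1 the rest was called (1.01, edgeR adjusted p = 0.0345) and the last 2000 nt were not (-1.06, adjusted p = 0.105), and without WT replicate 1 the last 2000 nt stood at -0.55 (edgeR adjusted p = 0.156).

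Without ΔE2 replicate 1, the calls for the rest of Col1a2 (1.07, edgeR adjusted p = 0.0460) and the rest of Col3a1 (1.85, edgeR adjusted p = 0.000319) held. That for Col1a2 ended with the library size as scaling (0.59, edgeR adjusted p = 0.143) and without ΔE2 replicate 3 (0.91, edgeR adjusted p = 0.0684). Both ended without each WT library in turn (edgeR adjusted p from 0.0677 to 0.150), with WT replicates 2 and 3 as 1 library (edgeR adjusted p = 0.100 for Col1a2 and 0.0868 for Col3a1) and with no low-count filter (0.736 for both).

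**Figure D5:**
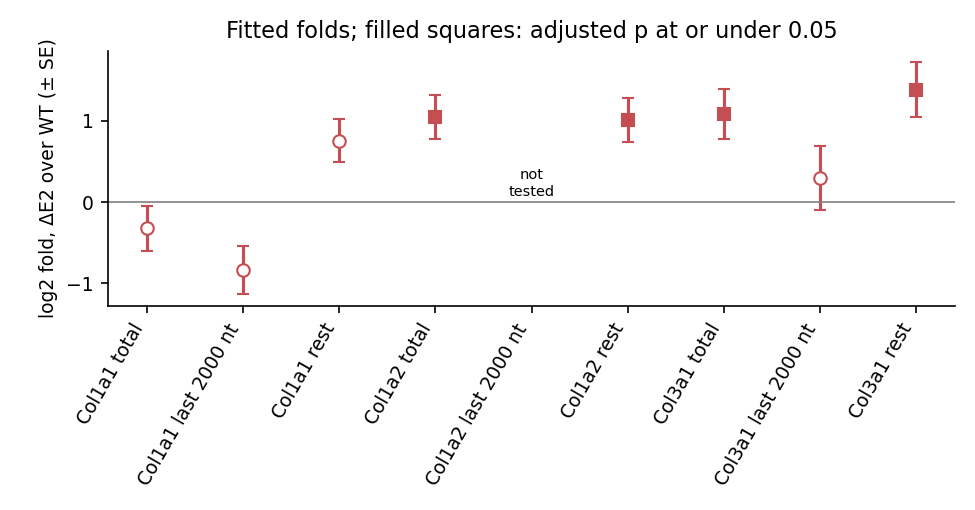
Log2 fold of ΔE2 over WT forelimb tags (edgeR, TMM scaling, bars ± 1 standard error) for each collagen gene and its parts, with filled squares at an adjusted p of at most 0.05. The totals and the rests of Col1a2 and Col3a1 stood between 1.01 and 1.38 and were called, while the Col1a1 values, from -0.83 to 0.75, were not.

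RNA-seq of the forelimbs touched collagen only through splicing. The authors' deposited table of 98 cassette-exon events held 0 events in Col1a1, Col1a2 or Col3a1. Of a list of 63 gene symbols chosen around collagen and its matrix, 3 had an event, with 5 events in all. Symbols were counted, so a gene listed under different names would count more than once. The 98 events lay in 84 genes. The share with an event among all genes assayed was not worked out, so these 3 were not set against a background. Values below are the authors' totals per genotype with no spread between embryos. Because one header in the deposited table carries the name of a different muscleblind gene, the mutant's values are given as those of the knockout column. Serpinh1, the collagen chaperone of the endoplasmic reticulum that binds newly made type I and III chains, had a 44-nt exon in the minus-strand event on chromosome 7 from 106497313 to 106501474. In the authors' deposited table its inclusion, computed from the junction tags, was 38.9% in the knockout column and 54.1% in WT (the authors' adjusted p = 0.00617), and 30.4% and 42.5% in a form with another end of the upstream exon (0.00985).

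Both cartilage collagens with an event differed the other way in the authors' deposited table. Col11a2, a chain of type XI collagen, had 35.1% inclusion of a 78-nt exon in the knockout column and 5.88% in WT (chromosome 17, 34181764 to 34183446, plus strand, the authors' adjusted p = 0.000191). Col2a1, the chain of type II collagen, had 67.8% inclusion of a 204-nt exon in the knockout column and 52.8% in WT (chromosome 15, 97829706 to 97835074, minus strand, the authors' adjusted p = 2.67e-05). A 207-nt form of that Col2a1 exon had 58.9% in the knockout column and 44.9% in WT (7.3e-05). Expression per gene in the RNA-seq was not used here, so the collagen tags were not set against the amount of each RNA.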

How the data were processed

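Per the submitters' processing notes, Novoalign placed the CLIP reads on mm9, with no version given. From the lines deposited by the authors, tag counts were made for each region, each molecule (position, strand and barcode) once. Reads per tag ran from 61.8 to 91.6 in WT and were 96.4, 267 and 428 in ΔE2. The median tag length was 35 nt in each ΔE2 library and in WT replicate 1. It was 31 nt in WT replicate 2 and 30 nt in WT replicate 3. Whether these differences bear on the calls between genotypes was not tested. The score column of the deposited lines was not used. RNA-seq reads were aligned with TopHat 1.3.2, per the submitters' processing notes. The deposited exon table gives estimated counts of junction tags per genotype and p-values, per the file headers. Inclusion recomputed from them matched the deposited change.

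Members and lists were chosen with earlier results of these data known. The test was that of edgeR 4.0.16 under R 4.3.3 (TMM, filterByExpr with a minimum count of 10, threshold 0.05, 3 residual degrees of freedom). DESeq2 1.42.0 was an alternative, beside those in the closing section. Shares were tested with exact permutation tests over libraries. In counts simulated for this comparison, 48.9% of 2-fold and 96.7% of 4-fold changes were recovered among 742 features, with 6 false calls out of 137. Molecules shared between libraries and unequal tag lengths had no part in that simulation. Its false calls therefore do not gauge the real calls, which fell from 76 to 0 without WT replicate 3. The labels call the replicates biological. Other steps ran in Python 3.11.15 (scipy 1.17.1, matplotlib 3.10.9, numpy 2.4.6, pandas 2.3.3). Named clusters are the up to 3 per gene with the most WT tags. A count of 0 allows up to 3 tags. No sequence is printed, because no mm9 genome was used.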

Additional observations from a re-analysis of the deposited data

How the results depend on the processing

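The fold of Col1a1 was negative and not called under all 16 alternatives, at -0.75 with library size, -0.78 with no filter and -0.51 to -0.08 without 1 library. The Col1a2 fold was 0.62 with the library size as scaling, 0.51 with no filter and 1.03 with WT replicates 2 and 3 counted as 1 library, none of which was called in edgeR (adjusted p from 0.0959 to 0.736). Leaving out 1 library gave 0.93 to 1.33 for Col1a2, and DESeq2 gave it no adjusted p. For Col3a1 the fold was 0.63 with library size, 1.12 with DESeq2 (adjusted p = 0.0581), 0.48 with no filter, 1.15 with WT replicates 2 and 3 as 1, and 0.86 with tiles of 50000 nt. None of these was called, and leaving out 1 library gave 0.96 to 1.48. The cause was not tested. Without ΔE2 replicate 1 a lone ΔE2 library is left, which is assumed to vary like the WT libraries.

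Rows called over the genome (76) numbered 136 with library size (20 higher, 116 lower in ΔE2), 20 with DESeq2, 3 with no filter, 141 with the 6 libraries as labelled, 1 with WT replicates 2 and 3 as 1, and 0 to 97 without 1 library. The count of 0 in edgeR came without WT replicate 3, where 174 rows had an unadjusted p under 0.05, and 1 row was called without WT replicate 2. Called clusters (62) numbered 80 with library size (22 higher, 58 lower in ΔE2), 35 with DESeq2, 19 with no filter, 27 with WT replicates 2 and 3 as 1, and 11 to 90 without 1 library. The Col1a2 share of the last 2000 nt differed by -0.390 (without ΔE2 replicate 1) to 5.14 points without 1 library. With forelimb tags of 26 to 30 nt, C2C12 over WT was 1.06 at Col1a2 and 1.33 at Col3a1. The last 2000 nt of Col3a1 turned to -0.12 with library size and -0.29 with no filter, with no call.

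Replicate numbers did not pair the libraries. For this, the mean of the genotype was first taken off each of 683 tiles, so the correlations are between what was left over. Same-numbered ΔE2 and WT libraries then had correlations of -0.130, -0.0501 and -0.122. Differently numbered ones had -0.0765 to 0.128. With the replicate number as a block over the 6 labelled libraries, 134 rows were called, against 141 without the block. Low tag numbers limit Col1a2 and Col3a1, whose WT libraries held 10 to 57 tags each.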

Other observations

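The deposited C2C12 lines carry 3 display colours that no source explains. By colour, Col1a1 had 24, 7 and 1 tags, Col1a2 112, 23 and 7, and Col3a1 131, 27 and 6, out of 420336, 95049 and 34739 tags, so that Col1a1 was the lowest of the 3 collagen RNAs in each colour.

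The stranded 20000-nt tiles most like each gene were chosen by Pearson r of log2(tags per 1000000 + 1) over the 5 forelimb libraries and the C2C12 set, among 138 tiles with at least 100 WT tags. All points of a tile share library and depth, and the values are a description. For Col1a1 the nearest tile began at 149840001 on the minus strand of chromosome 7 (r = 0.998). It had 1917 and 1765 tags per 1000000 in ΔE2, 0 in C2C12, and 5987, 3481 and 3226 in WT. Tiles at 98700001 on chromosome 11 and 3820001 on chromosome 13, both plus strand, also had r = 0.998. For Col1a2 and Col3a1 the likeness was weaker. The nearest tile to Col1a2 began at 9080001 on the plus strand of chromosome 19 (r = 0.831), and the nearest to Col3a1 at 67220001 on the plus strand of chromosome 6 (r = 0.775). The chromosome 19 tile was also the second nearest to Col3a1 (r = 0.761).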
